A study of Mus musculus with 12 samples.

Results

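Transcripts of 10 lysosomal genes, Psap, Ctsb, Ctsd, Ctsl, Ctsz, Lgmn, Lamp1, Lamp2, Grn, and Npc2, were followed in mouse blastocysts with and without inhibition of p38-MAPK. The genes were taken by name, as 10 of the 34245 rows of the deposited table, and each has 1 row. Psap was put first because its level in these libraries is among the highest, so that its level and rank are a description and not a test. The mRNA-Seq libraries came from embryos of matings between F1 hybrid (C57Bl6 x CBA/W) mice, which were collected at the 2-cell stage and grown in KSOM with amino acids. At E3.5 they were moved into medium with DMSO, the solvent control, or with 20 µM SB220025 dissolved in DMSO, a small molecule that inhibits p38-MAPK (p38-MAPKi), and were taken after 4, 7, or 10 h. Each of the 6 groups (DMSO or p38-MAPKi, at each of the 3 times) had 2 replicate libraries, each from a pool of 30 whole blastocysts, so that trophectoderm, epiblast, and primitive endoderm (PrE) are mixed in every value. In such a mixture, fewer cells of a type and less RNA per cell cannot be told apart. A level is given in RPKM, reads per kilobase of gene relative to the total reads of a library, and a change is the difference between the group means of the deposited log2 RPKM, p38-MAPKi minus DMSO.

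The lysosome is the acidic compartment in which cells break down proteins, lipids, and sugars that arrive by endocytosis or autophagy. Its enzymes are made as precursors, are carried from the Golgi to endosomes by receptors that mostly recognise mannose 6-phosphate, and are activated by cleavage in the acidic lumen. Many lysosomal genes share a short promoter element that contains the E-box CACGTG and is bound by the transcription factors TFEB and TFE3, which mTORC1 holds in the cytoplasm when nutrients are plentiful. In the blastocyst, the outer trophectoderm and the PrE are both active in endocytosis.

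The promoters of 3 genes are shown because they differ in this E-box: Lamp1 with the most copies among the 9 genes with a window, and Psap and Ctsz, the most abundant gene and the one with the largest differences after p38-MAPKi, with none. The sequences are those of RefSeq on GRCm38.p6, 5′ to 3′ on the strand of the gene and ending at the last base before the annotated start (for Psap, 1 base earlier), with CACGTG in capitals. They lie at chr8:13159061-13159160 (plus strand, Lamp1), chr10:60277528-60277626 (plus strand, Psap), and chr2:174439040-174439139 (minus strand, Ctsz), and none overlaps an exon of GENCODE M21.
Lamp1: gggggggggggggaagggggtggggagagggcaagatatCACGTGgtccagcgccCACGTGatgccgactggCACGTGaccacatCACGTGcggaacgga
Psap: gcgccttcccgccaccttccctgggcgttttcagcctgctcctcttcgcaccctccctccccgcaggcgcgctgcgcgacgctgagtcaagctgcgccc
Ctsz: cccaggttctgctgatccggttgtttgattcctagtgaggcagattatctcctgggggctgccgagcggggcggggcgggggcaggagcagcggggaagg

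In the 250 bases before the RefSeq start nearest to the start of the row, CACGTG (which reads the same on both strands) was found in 3 of the 9 genes with a window, and in 6.02% of all 32851 windows of this length. Lamp1 held 4 copies, at -61, -45, -28, and -15, where -1 is the last base before the start and the position is that of the first letter. Only 7 of the 32851 windows held 4 or more, a count made after the copies in Lamp1 were seen. Ctsd held 2, at -245 and -98, and Ctsl held 1, at -236. The RefSeq starts used lay 211 bases (Ctsd) and 370 bases (Ctsl) inside the row. The copies at -98 in Ctsd and -236 in Ctsl therefore lie within the rows and not before them. Psap, Ctsz, Npc2, Grn, Lamp2, and the nearest window of Lgmn held none, while a further RefSeq start of Lgmn had 1 at -49. A match of letters is a description of the promoter and says nothing on whether a factor bound there.

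Library totals lay between 11242313 and 24457312 reads, recovered from the deposited values. The p38-MAPKi library of replicate 1 at E3.5 + 7 h stood apart, with the lowest total and a correlation of 0.924 with its replicate across genes, against 0.969 to 0.981 for the other 5 pairs. Each result at 7 h was therefore also computed without either library of that group.

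Psap encodes prosaposin, the precursor that is cleaved into the 4 saposins, small proteins that present sphingolipids to lysosomal hydrolases. The row of Psap (ENSMUSG00000004207.14) spans 60277627 to 60302597 on chromosome 10 of GRCm38, and its principal transcript in GENCODE M21 has 15 exons. Its level was 2092 ± 217 RPKM (SD, n = 12 libraries), the 4th highest mean among the 34245 rows. The 3 rows above it were Gm42418, Rpl8, and Rplp1, and the next one below was Hsp90ab1. The range of Psap (1725 to 2349 RPKM) overlapped those of Gm42418 (2004 to 25354 RPKM), Rpl8 (2088 to 3865 RPKM), Rplp1 (1683 to 4399 RPKM), and Hsp90ab1 (1603 to 2232 RPKM). Ranges over the libraries thus do not separate Psap from these neighbours, which were not compared with it library by library. Within single libraries Psap ranked between the 1st and the 6th place, and it was 1st in control replicate 2 and both p38-MAPKi libraries at E3.5 + 10 h. It held 59231 to 157657 reads, or 0.473% to 0.645% of a library, and was the 1st or 2nd row by reads in every library among the 34243 rows with recovered reads.

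Next in level were Ctsd and Lamp1. Ctsd (cathepsin D, an aspartyl protease; chromosome 7, 142375911 to 142388038) had a mean of 676 ± 102 RPKM and the 25th highest mean. Lamp1 (a heavily glycosylated protein of the lysosomal membrane; chromosome 8, 13159161 to 13175338) had 344 ± 34.7 RPKM, the 72nd. Grn (progranulin, a secreted and lysosomal precursor of granulins; chromosome 11, 102430315 to 102437048) had 137 ± 16.8 RPKM. Npc2 (a soluble protein that binds cholesterol in the lysosome; chromosome 12, 84754562 to 84773152) had 82.3 ± 14.6 RPKM. From Psap to Ctsl, every gene lay above the next one in the order in 12 of 12 libraries.

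The remaining genes were less abundant. Ctsl (cathepsin L, a cysteine protease; chromosome 13, 64359337 to 64370890) had 48.1 ± 5.77 RPKM. Lgmn (legumain, which cleaves after asparagine and processes other cathepsins; chromosome 12, 102394084 to 102439813) had 32.1 ± 4.53 RPKM, Ctsb (cathepsin B, a cysteine protease; chromosome 14, 63122462 to 63145923) 31.9 ± 3.79 RPKM, and Ctsz (cathepsin Z, a carboxypeptidase; chromosome 2, 174427493 to 174439039) 30.2 ± 9.82 RPKM. These 3 did not differ in level beyond their spread, since Lgmn lay above Ctsb in 6 of 12 libraries and Ctsb above Ctsz in 8. Lamp2 (a second membrane glycoprotein, with a part in autophagy; chromosome X, 38401357 to 38456454) was lowest, with 12.4 ± 0.87 RPKM. Together the 10 genes took 0.826% to 1.06% of the reads of a library, of which Psap made up 50.3% to 62.0%. Relative to the mean, the spread over the 12 libraries was widest for Ctsz (32.5%) and narrowest for Lamp2 (7.03%).

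**Figure D1:**
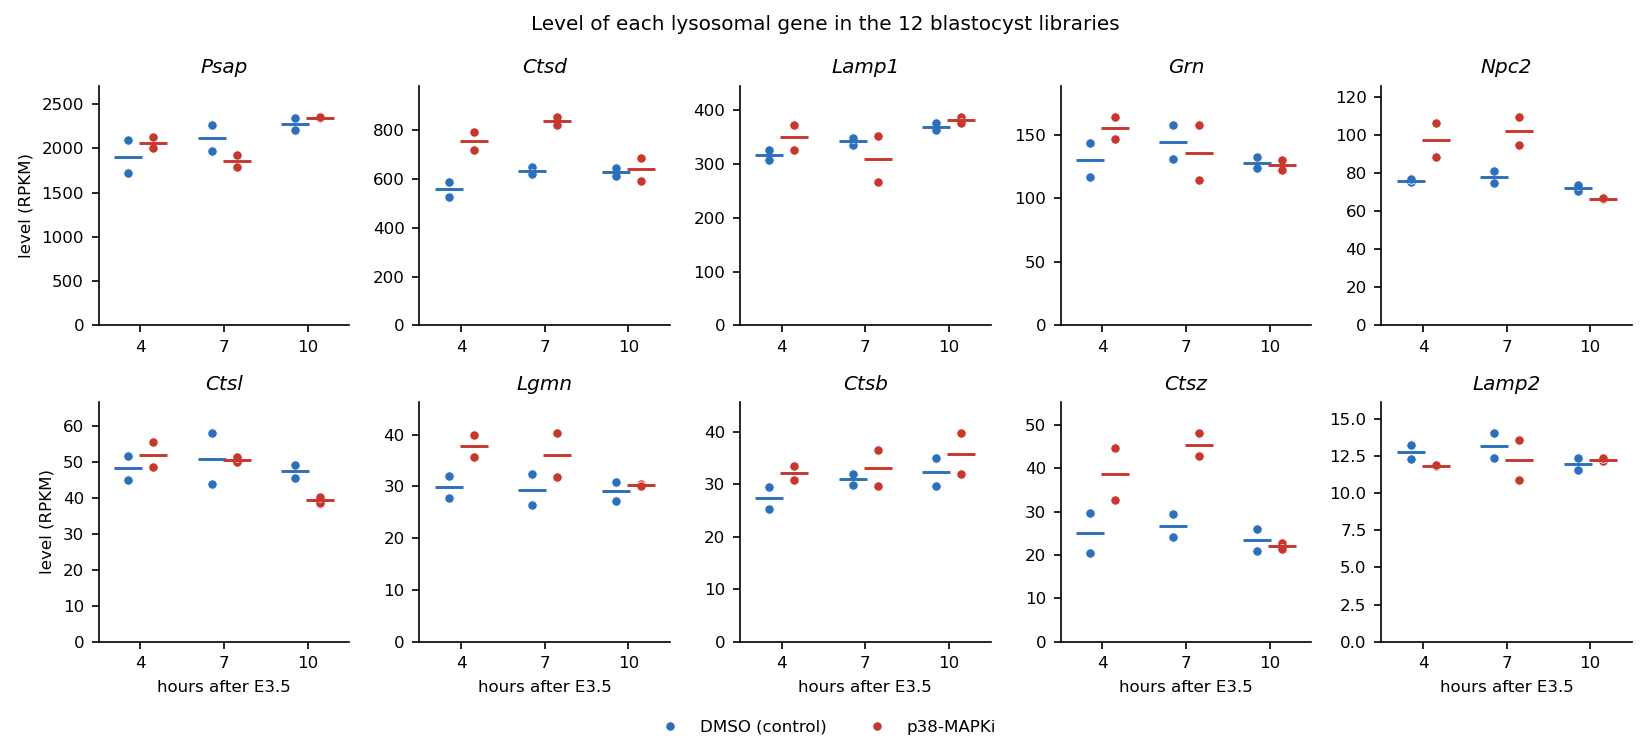
The level of each lysosomal gene (RPKM, vertical axes from 0) is plotted against hours after E3.5, with 1 point per library and a horizontal mark at the mean of the 2 libraries of a group (blue, DMSO; red, p38-MAPKi). Ctsd, Npc2, and Ctsz have both p38-MAPKi libraries above both control libraries at 4 and 7 h, and lie close to the control at 10 h.

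The order in the lower part depended on the gene length. The length behind the deposited RPKM equalled the merged length of all exons of the gene in GENCODE M21 for each of the 10 genes. For Lamp2 this length was 9552 bases, 2.65 times that of its principal transcript (3604 bases), and for Npc2 it was 1.65 times (5438 against 3299 bases). Ctsl has 2 principal transcripts, of 6168 and 1971 bases. Per kilobase of the longest principal transcript, the order from Psap to Ctsl stayed as above, and Ctsb, Lgmn, Lamp2, and Ctsz followed with 40.7 ± 4.84, 37.4 ± 5.28, 32.9 ± 2.31, and 30.2 ± 9.82 RPKM (SD, n = 12). Per kilobase of the shortest, Ctsl had 158 ± 19.0 RPKM and stood above Npc2, at 136 ± 24.1 RPKM. The position of Psap, Ctsd, Lamp1, and Grn was the same under each length, and a change between groups does not involve the length.

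**Figure D2:**
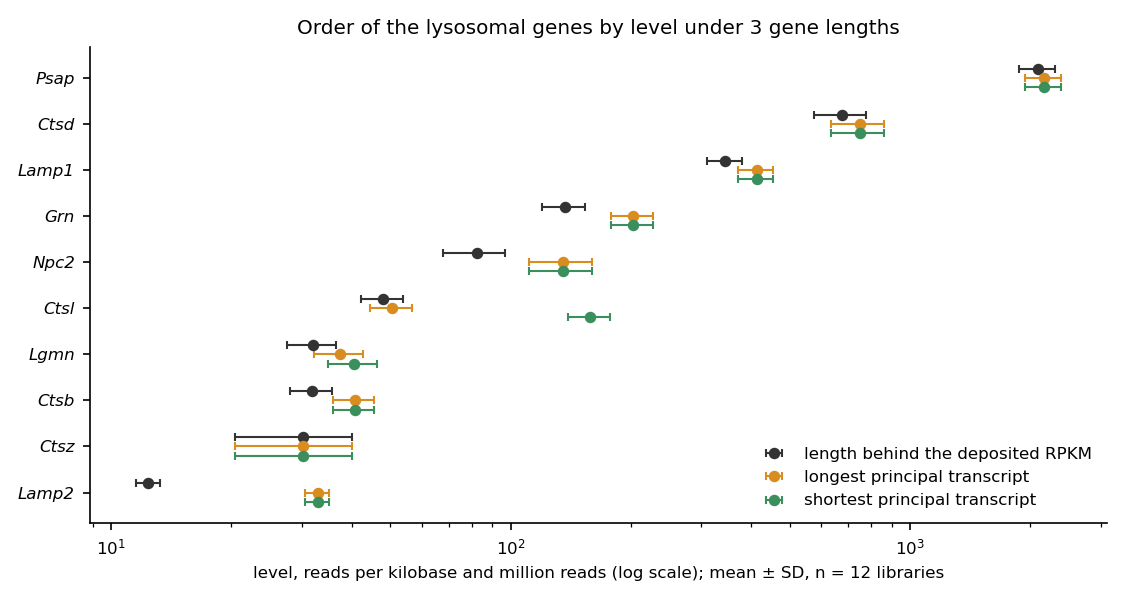
Each point is the mean level of a gene over the 12 libraries with its SD, in RPKM on a log axis, with the length behind the deposited RPKM (black), the longest (orange), or the shortest (green) principal transcript of GENCODE M21. Psap, Ctsd, Lamp1, and Grn keep their places, whereas Ctsl moves above Npc2 and Lamp2 to the level of Ctsz.

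Other rows overlap those of the 10 genes. The row AC034099.1 overlaps 6757 bases of the row of Ctsd on the same strand and held 0.309 to 0.452 times the reads of Ctsd, so that reads of the 2 rows may be split or shared. Fdft1 (774 bases, beside Ctsb), Nelfcd (10 bases, Ctsz), Grtp1 (3317 bases, Lamp1), Fam171a2 (68 bases, Grn), and CT030159.2 (1971 bases, Ctsl, no read in any library) overlap on the opposite strand. The library kit keeps the strand, but whether it was used in counting is not given in the sources used here.

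At E3.5 + 4 h, p38-MAPKi was compared with the control to ask which lysosomal transcripts respond first. No gene of the 10 passed the test (limma, Benjamini-Hochberg adjusted p under 0.05), where 0.909% of the 10781 genes tested did. Unadjusted p-values under 0.05 were found for 2 of the 10, Ctsz and Ctsd, against 9.42% of all genes, and voom on the recovered reads called 0 as well. Nevertheless, 7 of the 10 had both p38-MAPKi libraries above both control libraries, against 26.8% of all genes, and Lamp2 alone had both below, against 13.7%. The median change of the 10 was 0.24, against 0.07 for all genes tested.

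Ctsz was at 20.5 and 29.6 RPKM in the control libraries and at 32.8 and 44.6 RPKM in the p38-MAPKi libraries. The groups did not overlap, but the replicates of each differed by a wide margin. The log2 change was 0.63 with a standard error of 0.20 (limma, adjusted p = 0.102). Without p38-MAPKi replicate 1 the adjusted p was under the threshold, and this was the single alternative in which Ctsz was called at this time.

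Ctsd was at 525 and 590 RPKM in the control and at 720 and 793 RPKM after p38-MAPKi. Both p38-MAPKi libraries lay well above both controls, with a log2 change of 0.44 ± 0.22 (SE; limma, adjusted p = 0.527). For the overlapping row AC034099.1 the change was 0.37 ± 0.22. Npc2 was at 75.4 and 77.2 RPKM in the control and 88.8 and 107 RPKM after p38-MAPKi (0.35 ± 0.20, adjusted p = 0.611), and Lgmn at 27.7 and 32.0 against 35.7 and 39.9 RPKM (0.34 ± 0.20, adjusted p = 0.626). Psap was at 1725 and 2087 RPKM in the control and 2127 and 1997 RPKM after p38-MAPKi. Its groups overlapped, and its change of 0.12 was smaller than its standard error of 0.25. Grn, Ctsb, Lamp1, Ctsl, and Lamp2 had changes of 0.26, 0.23, 0.14, 0.10, and -0.10, with adjusted p-values from 0.735 to 0.909 (limma). The signs for Psap, Lamp1, and Ctsl turned with quantile normalization and that for Lamp2 with the length trend of each library removed (0.073), so that no direction is given for these 4.

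At E3.5 + 7 h the same comparison addresses the time at which the largest number of transcripts in the series differed. None of the 10 genes passed the test, where 2.13% of 10940 genes did. At an unadjusted p under 0.05 there was 1, Ctsz, against 28.4% of all genes. Voom on the recovered reads called 1 of the 10, Ctsz, against 15.9% of all genes. Both p38-MAPKi libraries lay above both controls for Ctsz, Ctsd, and Npc2, 3 of the 10, against 23.0% of all genes, and below them for Psap, 1 of the 10, against 38.7%. The median of the 10 changes was 0.05, whereas that of all genes tested was -0.14, so that the changes below are relative to a library scale on which most genes were lower.

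Ctsz was at 24.1 and 29.4 RPKM in the control and 48.1 and 42.8 RPKM after p38-MAPKi, the highest values of this gene among the 12 libraries apart from 44.6 RPKM in 1 library at 4 h. The log2 change was 0.77 ± 0.18 (SE; limma, adjusted p = 0.0551), which corresponds to the group means of 26.8 ± 3.72 and 45.4 ± 3.75 RPKM (SD, n = 2). This narrow miss of the threshold was a call under 7 of 14 alternatives, with adjusted p-values from 0.0108 to 0.311 and the same direction in all 14. With each library centred on its median the change was 0.96, and with the length trend of each library removed it was 0.43.

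Ctsd was at 649 and 622 RPKM in the control and 854 and 821 RPKM after p38-MAPKi, the 2 highest values of the 12 libraries. Its log2 change was 0.40 ± 0.19 (SE; limma, adjusted p = 0.201). For AC034099.1 the change was 0.00 ± 0.19, and its reads relative to those of Ctsd were lowest in these 2 p38-MAPKi libraries (0.309 and 0.345). With quantile normalization the change of Ctsd was 0.03. Npc2 was at 81.2 and 75.2 RPKM in the control and 95.2 and 110 RPKM after p38-MAPKi, with a change of 0.39 ± 0.17 (adjusted p = 0.178). It was called in the fit of all 12 libraries alone (adjusted p = 0.0469). Both genes thus showed separate groups without passing the test.

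Psap was at 2263 and 1964 RPKM in the control and 1920 and 1784 RPKM after p38-MAPKi. The p38-MAPKi libraries were the lower 2, by a small distance, and the change was -0.19 ± 0.22 (SE; limma, adjusted p = 0.579), or 0.01 with each library centred on its median. Lgmn was at 32.3 and 26.3 RPKM in the control and 40.2 and 31.8 RPKM after p38-MAPKi, so that its groups overlapped (0.30 ± 0.20, adjusted p = 0.343). For Ctsb, Ctsl, Grn, Lamp1, and Lamp2 the changes were 0.09, 0.01, -0.10, -0.16, and -0.11, all smaller than their standard errors. In Lamp1, p38-MAPKi replicate 1 had 267 RPKM, the lowest value of the 12 libraries, beside 351 RPKM in replicate 2.

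At E3.5 + 10 h the groups of Ctsz and Ctsd overlapped. None of the 10 genes passed the test, where 0.803% of 10959 genes did. Ctsl was the 1 gene with an unadjusted p under 0.05, against 19.8% of all genes. Voom on the recovered reads called 1 of the 10, Ctsl, against 4.81% of all genes. Both p38-MAPKi libraries lay above both controls for Lamp1 alone, against 22.6% of all genes, and below them for Ctsl and Npc2, 2 of the 10, against 29.6%. The standard errors of the 10 genes were between 0.06 and 0.13 here, which made this the most precise of the 3 times.

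Ctsl was at 49.1 and 45.6 RPKM in the control and 38.5 and 40.3 RPKM after p38-MAPKi, the 2 lowest values of the 12 libraries. Its log2 change was -0.27 ± 0.07 (SE; limma, adjusted p = 0.120). Npc2 was at 70.7 and 73.8 RPKM in the control and 66.7 and 66.9 RPKM after p38-MAPKi, a change of -0.11 ± 0.06 (adjusted p = 0.356). The Npc2 groups were thus separate at all 3 times, with p38-MAPKi above the control at 4 and 7 h and below it at 10 h. Ctsz was at 26.0 and 20.98 RPKM in the control and 22.8 and 21.4 RPKM after p38-MAPKi, and its groups overlapped (-0.08 ± 0.11). Ctsd was at 615 and 647 against 594 and 686 RPKM, also with overlap (0.02 ± 0.08). Psap was at 2210 and 2343 against 2337 and 2349 RPKM, with a change of 0.04 ± 0.07 and a 95% interval from -0.12 to 0.20.

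**Figure D3:**
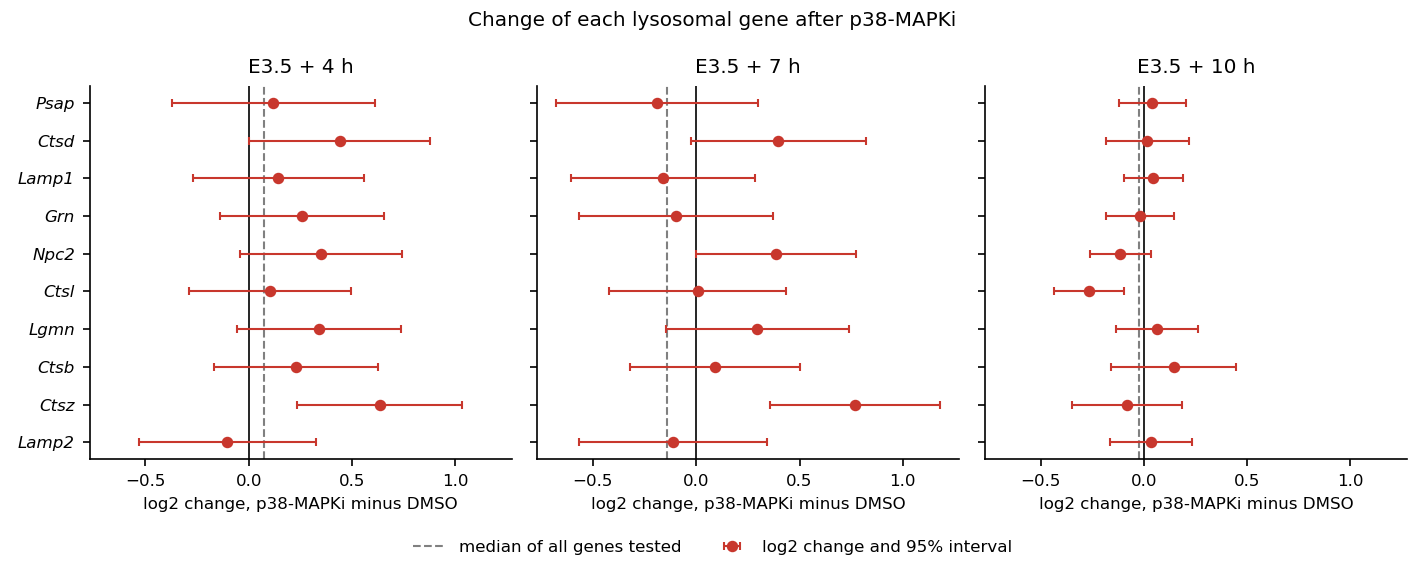
Points are the log2 change of each gene, p38-MAPKi minus DMSO, with its 95% interval from limma, at E3.5 + 4, 7, and 10 h; the dashed line is the median of all genes tested. Ctsz lies at 0.63, 0.77, and -0.08 at the 3 times, and the intervals at 10 h are the narrowest.

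Whether the response differed between times was tested as an interaction. Between 4 and 7 h, no gene of the 10 passed (0.00884% of 11311 genes did), none had an unadjusted p under 0.05 (6.83% of all genes did), and voom called 0. Between 7 and 10 h, again none passed (0.00877% of 11400 genes did), but 3 of the 10 had an unadjusted p under 0.05, against 26.3% of all genes. These were Ctsz, with an effect at 10 h that was -0.85 ± 0.21 relative to that at 7 h (SE; limma, adjusted p = 0.0759), Npc2 (-0.50 ± 0.15, adjusted p = 0.100), and Ctsd (-0.38 ± 0.16, adjusted p = 0.181). Voom on the recovered reads called 1 of the 10, Ctsz, against 7.89% of all genes. The median difference between the effects over all 10 was -0.09, against 0.15 for all genes tested. Leaving out p38-MAPKi replicate 2 at 7 h leaves the library that stood apart as the only one of its group. The difference between the effects for Ctsz was then -0.93, and its change at 7 h was 0.85. Leaving out replicate 1 instead gave a difference of -0.76 and a change of 0.68. With 1 library left in that group, only sizes are given here.

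In 1 fit of all 12 libraries for an effect common to the 3 times, no gene of the 10 passed, where 2.67% of 11590 genes did. An unadjusted p under 0.05 was found for 4 of the 10, against 25.0% of all genes, and voom called 0. These were Ctsz (0.44 ± 0.15, adjusted p = 0.114), Ctsd (0.29 ± 0.10, adjusted p = 0.108), Lgmn (0.23 ± 0.09, adjusted p = 0.155), and Npc2 (0.21 ± 0.10, adjusted p = 0.199; SE, limma). Ctsz and Lgmn encode a carboxypeptidase and an endopeptidase, Ctsd an aspartyl protease, and Npc2 a lipid carrier.

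Control blastocysts were compared across time to describe the genes as the blastocyst matures. From 4 to 7 h, no gene of the 10 passed the test (0.492% of 10776 genes did), none had an unadjusted p under 0.05 (4.79% did), and voom called 0. From 7 to 10 h the same was found, where 0.0552% of 10873 genes passed and 3.79% had an unadjusted p under 0.05. From 4 to 10 h none passed (0.471% of 10825 genes did), 2 had an unadjusted p under 0.05, Psap and Lamp1, against 15.2% of all genes, and voom called 0. For 4 of the 10, Psap, Ctsb, Ctsd, and Lamp1, both libraries at 10 h lay above both at 4 h, against 42.3% of all genes.

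Psap had group means of 1906 ± 256, 2114 ± 212, and 2277 ± 93.9 RPKM (SD, n = 2) in control blastocysts at 4, 7, and 10 h. The change from 4 to 10 h was 0.26 ± 0.11 (SE; limma, adjusted p = 0.303), and it was called only without control replicate 2 at 4 h. Lamp1 had 315 ± 12.97, 342 ± 9.08, and 369 ± 9.60 RPKM, with a change of 0.23 ± 0.10 (adjusted p = 0.306). The median of all genes tested was 0.14 in this comparison and that of the 10 genes was -0.02. Ctsl, Ctsz, Lgmn, Lamp2, Grn, and Npc2 had changes between -0.09 and -0.02.

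Across the 12 libraries, the 5 genes most like Psap, by Pearson's r of log2 RPKM among 4939 genes with a mean of at least 10 RPKM, were Slc9a3r1 (r = 0.964), Flot2 (0.942), Actb (0.927), Ywhah (0.926), and Gnai2 (0.926). These values describe libraries that share their times and treatments, and none of the 5 is among the lysosomal genes listed here.

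Beyond the 10 genes, 137 other lysosomal genes were listed by their roles, and 106 to 108 of them were expressed highly enough to be tested. At 4 h none was called (0.909% of all genes were), 6 were higher and 1 lower at an unadjusted p under 0.05, or 6.60% against 9.42% of all genes, and voom called 0 (0.306% of all genes). At 7 h none was called (2.13% of all genes were), and 6 were higher and 20 lower at an unadjusted p under 0.05, or 24.3% against 28.4% of all genes (1171 higher and 1931 lower). Voom on the recovered reads called 17 at this time, 15.9% of those tested, and the same share of all genes. Without p38-MAPKi replicate 2, which leaves the library that stood apart as the only one of its group, 26 were called at 7 h, and 2919 among all genes. At 10 h 2 were called, 1.87% against 0.803% of all genes, and 15 were higher and 16 lower at an unadjusted p under 0.05, or 29.0% against 19.8%. Voom called 5 at 10 h, 4.67% against 4.81% of all genes, and leaving out any 1 library of this comparison gave 0 to 1 in the limma test. The median changes of the genes tested among these 137 were 0.11, -0.17, and -0.03 at the 3 times, near those of all genes tested (0.07, -0.14, and -0.02).

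The 2 genes called at 10 h were Laptm5 and Neu1. Laptm5, a lysosomal membrane protein best known from blood cells, was at 6.89 and 6.46 RPKM in the control and rose to 10.6 RPKM in both p38-MAPKi libraries (0.67 ± 0.09 SE; limma, adjusted p = 0.0403). At 4 h both p38-MAPKi libraries lay below the control (4.49 and 3.87 against 5.47 and 5.06 RPKM), without passing the test. Neu1, the lysosomal sialidase, was at 52.4 and 51.2 RPKM in the control and fell to 38.7 and 36.1 RPKM (-0.47 ± 0.07, adjusted p = 0.0478). Over the 14 alternatives, Laptm5 was called in 8 and Neu1 in 7, and both kept their direction in all 14.

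For the effect common to the 3 times, 3 of the other lysosomal genes were called, all lower after p38-MAPKi, which is 2.78% against 2.67% of all genes. At an unadjusted p under 0.05, 11 were higher and 13 lower, or 22.2% against 25.0% of all genes. Voom called 4, 3.70% against 3.49% of all genes, and leaving out any 1 library gave 0 to 6 in the limma test. Flcn encodes folliculin, which acts on the Rag GTPases that bring mTORC1 to the lysosome. It was at 8.39, 9.49, 9.82, 9.21, 8.66, and 8.76 RPKM in the control libraries and 7.06, 5.23, 5.52, 6.20, 6.72, and 7.64 RPKM after p38-MAPKi, so that all 6 p38-MAPKi libraries lay below all 6 controls (-0.51 ± 0.11 SE; limma, adjusted p = 0.0302). Rragd encodes 1 of these Rag GTPases, RagD. It was at 44.9 to 62.6 RPKM in the control and 32.3 to 45.2 RPKM after p38-MAPKi, where a single p38-MAPKi library lay above the lowest control (-0.44 ± 0.10, adjusted p = 0.0417). Neu1 was the third (-0.37 ± 0.09, adjusted p = 0.0403). Flcn was called in 12 of 20 alternatives, and Rragd and Neu1 each in 8 of 21, with the same direction throughout.

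In the other 5 comparisons none of these genes was called. The counts at an unadjusted p under 0.05 were 5 higher and 0 lower from 4 to 7 h, 2 and 2 from 7 to 10 h, and 14 and 1 from 4 to 10 h in the control, 0 and 7 for the interaction from 4 to 7 h, and 19 and 9 for that from 7 to 10 h. In this order, both directions together were 4.72%, 3.74%, 14.2%, 6.54%, and 25.9% of the other lysosomal genes tested, and 4.79%, 3.79%, 15.2%, 6.83%, and 26.3% of all genes. Voom called 0, 0, 3, 0, and 10 in these comparisons, and 0.065%, 0.0828%, 3.71%, 0%, and 7.89% of all genes. Gm2a, the activator protein for the breakdown of ganglioside GM2, was closest to a call among the abundant genes, at 210 and 215 RPKM in the control at 4 h and 293 and 311 RPKM at 10 h (0.51 ± 0.10 SE; limma, adjusted p = 0.0505).

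The most abundant gene of each list gives the scale. Cstb, an inhibitor of cysteine cathepsins, had 525 ± 82.5 RPKM (SD, n = 12), above every cysteine protease listed. Cd63, a tetraspanin of late endosomes and lysosomes, had 260 ± 45.1 RPKM, Gm2a 239 ± 50.6 RPKM, Atp6v0d1, a subunit of the proton pump, 134 ± 10.2 RPKM, and Pla2g15, the lysosomal phospholipase A2, 113 ± 10.3 RPKM. Among the other peptidases it was Scpep1 (89.8 ± 11.2 RPKM), among the regulators Lamtor2 of the Ragulator complex (76.9 ± 24.8 RPKM), and among the sorting proteins Vps26a of the retromer (53.6 ± 5.82 RPKM). In contrast, the 8 placental cathepsins, relatives of Ctsl that are expressed in the later placenta, were all under 1 RPKM in every library, and 6 of them had no read. The highest among them, Cts6, reached at most 0.273 RPKM. The cathepsins Ctse, Ctsg, Ctss, and Ctsw, known mainly from immune and gastric cells, also had no read in any library.

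**Figure D4:**
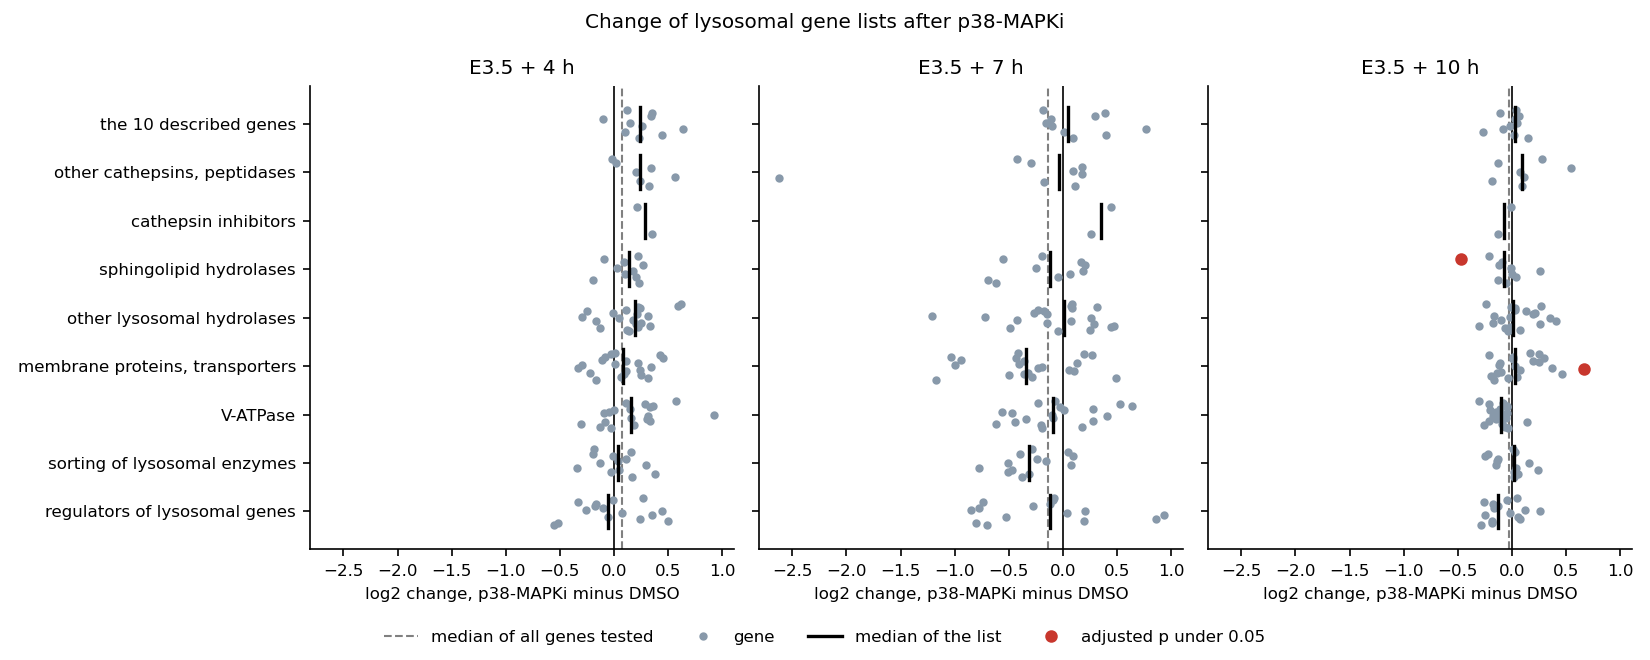
Each point is the log2 change of 1 lysosomal gene, p38-MAPKi minus DMSO, grouped by list, with a black bar at the median of the list and a dashed line at the median of all genes tested; red points have an adjusted p under 0.05. The red points are Neu1 and Laptm5 at 10 h, and the placental cathepsins are not drawn because none was expressed highly enough to be tested.

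Markers of the lineages and of possible other cells were measured beside these genes. Of 8 macrophage markers, 5 (Lyz2, C1qb, Ptprc, Tyrobp, and Adgre1) had no read in any library, and their summed level was 2.94 to 3.37 RPKM in the control and 4.70 to 8.03 RPKM after p38-MAPKi at 4 h, 4.67 to 4.89 and 4.23 to 7.81 RPKM at 7 h, and 6.56 to 6.61 and 4.01 to 4.19 RPKM at 10 h. This sum was mostly Cd68, itself a lysosomal membrane glycoprotein and the 1 marker of the list that was tested, which is named here after its values were seen. Cd68 was at 2.65 and 2.83 RPKM in the control and rose to 4.48 and 7.32 RPKM after p38-MAPKi at 4 h (1.06 ± 0.27 SE; limma, adjusted p = 0.0188). In the control it rose to 6.23 and 6.29 RPKM from 4 to 10 h (1.19 ± 0.17, adjusted p = 0.0104), where the p38-MAPKi libraries had 3.87 and 3.84 RPKM (-0.70 ± 0.11, adjusted p = 0.0508). Of the 8 markers of cumulus and oviduct cells, none was expressed highly enough to be tested, and their summed level was at most 1.70 RPKM.

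Markers of each blastocyst lineage were present in every library, but Elf5 (trophectoderm) and Sox7 (PrE) were under 1 RPKM throughout. The 7 trophectoderm markers summed to 1735 to 2552 RPKM, the 5 epiblast markers to 516 to 674 RPKM, and the 8 PrE markers to 134 to 214 RPKM. At 7 h the PrE sum was 196 to 214 RPKM in the control and 134 to 140 RPKM after p38-MAPKi, with a median change of -0.46 over 7 tested markers, beside -0.14 for all genes tested. Of these 7, Dab2 was called (-1.003 ± 0.19 SE; limma, adjusted p = 0.0461), where 2.13% of all genes were. This call was not checked without either p38-MAPKi library. The median at 7 h was -0.25 over the 5 epiblast markers, of which none was called. At 4 and 10 h the epiblast median was -0.15 and -0.10. The epiblast sum at 4 h was 540 to 652 RPKM in the control and 612 to 674 RPKM after p38-MAPKi. At 7 h it was 592 to 638 and 633 to 674 RPKM, and at 10 h 571 to 575 and 516 to 543 RPKM. Sox2 and Tdgf1, 2 of the 5, were lower at 10 h at an unadjusted p under 0.05 (limma), against 19.8% of all genes. The PrE sum was mostly Gata6 and Dab2. At 4 h it was 160 to 193 RPKM in the control and 144 to 196 RPKM after p38-MAPKi. At 10 h it was 198 to 207 and 200 to 211 RPKM. The median changes of the 7 PrE markers at these times were -0.31 and -0.14, beside 0.07 and -0.02 for all genes tested. The trophectoderm sum at 7 h was 1808 to 2388 RPKM in the control and 2062 to 2205 RPKM after p38-MAPKi. This sum was mostly Krt8 and Krt18, and over its 6 tested markers the median change was -0.28, with none called and 2 lower at an unadjusted p under 0.05, Gata3 (-0.68) and Cdx2 (-0.49). For the effect common to the 3 times these 2 were called lower (-0.51 ± 0.09 and -0.38 ± 0.08 SE; limma, adjusted p = 0.0169 and 0.0336), against 2.67% of all genes. Over the 6 tested markers the median common effect was -0.04, and 3 of the 6 were higher. The part of these shifts in the changes of Ctsz, Ctsd, and Npc2 was not tested.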

How the data were processed

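Poly(A) mRNA from 12 pools, each of 30 blastocysts, was read in single-end mode. The authors trimmed (Trim Galore 0.4.1), aligned (HISAT2 2.0.5, GRCm38), and quantified the reads in SeqMonk, and deposited log2 RPKM for each gene and library. Zero reads were stored as 0.9 reads. Whole reads (within 0.01) and gene lengths were recovered from the values for 99.99% of rows. No spike-in was added, so values are shares of a library. The authors call the 2 pools of a group biological duplicates.

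The deposited log2 values were tested with limma 3.58.1 (eBayes with trend) in R 4.3.3, comparison by comparison. A gene entered when 2 or more libraries of the comparison reached 1 RPKM, and p-values were adjusted over all these genes by Benjamini-Hochberg (threshold 0.05). The procedure was tested on simulated data. Alternatives left out the trend, the filter, or each library in turn, raised the filter to 10 RPKM, used log2(RPKM + 1), centred libraries on their medians, equalised their quantiles, removed the length trend (loess, span 0.5), fitted 12 libraries together, or took the replicate number as a block. Voom on the recovered reads and principal transcript lengths were chosen after seeing the data. The 10 genes, the lists, and the tests were chosen with earlier results of these data known. Named were the 10 genes, every other listed lysosomal gene called in any comparison (at most 12 in each), the most abundant of each list, the 5 genes most like Psap, and its neighbours in level. Promoters came from RefSeq (GRCm38.p6) and gene models from GENCODE M21. Python 3.11.15, numpy 2.4.6, and pandas 2.3.3 were used for the rest.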

Additional observations from a re-analysis of the deposited data

How the results depend on the processing

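No gene of the 10 was called in any of the 9 comparisons, and single alternatives moved this count. At 7 h it was 2 with no filter (Ctsd and Ctsz) and 2 with 12 libraries in 1 fit (Ctsz and Npc2), and 1 (Ctsz) with at least 10 RPKM, log2(RPKM + 1), and voom. At 10 h it was 1 (Ctsl) with voom, and for the interaction from 7 to 10 h it was 1 (Ctsz) with at least 10 RPKM and with voom. Voom called 15.9% of all genes at 7 h, 4.81% at 10 h, and 7.89% for this interaction. For the other settings in this paragraph the share of all genes is not given, so no excess over all genes is read from their counts. Leaving out 1 library gave 0 to 1 at 4 h, at 7 h, from 4 to 10 h in the control, and for the interaction from 7 to 10 h, and 0 in the other 5 comparisons. A library left alone in its group was assumed to vary like the others. The replicate numbers are shared by the groups, and deviations of same-numbered libraries correlated by -0.163 to 0.139 over all pairs of groups. The highest value was that between DMSO and p38-MAPKi at 10 h. Low correlations cannot tell whether same-numbered pools shared a collection of embryos. With the replicate number as a block the count at 7 h was 1 (Ctsz), and it was 0 in the other 8 comparisons. The causes of these differences were not tested.

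Of 788 recalculated changes of single genes, 38 had the opposite sign. With quantile normalization these were Psap (-0.034), Ctsl (-0.060), and Lamp1 (-0.084) at 4 h, Ctsl (-0.10) and Lamp2 (0.039) at 7 h, Grn (0.062) at 10 h, and Ctsd (0.075) in the interaction from 7 to 10 h. With median centring they were Psap (0.0075), Lamp1 (0.036), Lamp2 (0.083), and Grn (0.097) at 7 h, and with the length trend removed Lamp2 at 4 h (0.073) and 7 h (0.22). Leaving out 1 library gave ranges across 0 for Psap at 4 h (-0.018 to 0.26), and at 7 h for Ctsb (-0.061 to 0.24), Ctsl (-0.20 to 0.21), Lamp1 (-0.36 to 0.040), Lamp2 (-0.27 to 0.046), and Grn (-0.33 to 0.13). At 10 h it did so for Psap (-6.4e-05 to 0.084), Ctsb (-0.013 to 0.30), Ctsd (-0.087 to 0.12), Ctsz (-0.23 to 0.073), Lgmn (-0.028 to 0.16), Lamp2 (-0.015 to 0.082), and Grn (-0.072 to 0.032). In the control from 4 to 10 h the ranges were -0.13 to 0.071 for Ctsl, -0.34 to 0.19 for Ctsz, -0.14 to 0.064 for Lgmn, and -0.17 to 0.13 for Grn. The count of other lysosomal genes called was 0 to 5 at 10 h and 0 to 6 for the common effect. Voom called 5 and 4 there, or 4.67% and 3.70% of those tested, against 4.81% and 3.49% of all genes. At 7 h and for the interaction from 7 to 10 h, fits that left 1 library in a group gave the highest counts. The same held from 4 to 10 h in the control. In this order, voom called 17, 10, and 3, or 15.9%, 9.26%, and 2.83% of those tested, against 15.9%, 7.89%, and 3.71% of all genes.

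With 2 libraries per group, a change is judged against the spread that limma shares between genes. At 7 h the standard errors of the 10 genes (0.17 to 0.22) left the 95% intervals of 9 of them across 0.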
